A study of Mus musculus with 5 samples.

Results

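The genes described here belong to the burst of transcription at the 2-cell stage of the mouse embryo, and they were followed in embryos of the 4-cell stage that had been made by nuclear transfer. The members were taken from a list of 10 gene symbols, Zscan4c, Zscan4d, Zfp352, Tdpoz1, Tdpoz3, Tdpoz4, Tcstv1, Tcstv3, Eif1a and Arg2, and 8 of them matched 1 of the 22026 symbols in the deposited tables. Tcstv1 and Tcstv3 matched none under their own or older symbols and are not analysed here. Of the 8 genes, 7 had a mean of at least 1 FPKM over the 5 libraries, and Zscan4c, with a mean of 0.712 FPKM, did not. FPKM is the number of fragments scaled to transcript length and to the mapped total, so that levels of different genes can be set side by side per length.

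RNA-seq had been run on 5 libraries, 1 for each group, all from B6D2F1 embryos in which an oocyte had received a transferred nucleus. The groups were embryos with an H3.3 knockdown labelled as given H3.3 mRNA, embryos with an H3.3 knockdown labelled as given H3.2 mRNA, embryos with the H3.3 knockdown alone, embryos treated with luciferase, and untreated embryos. For the library labelled H3.2 mRNA the treatment tag reads H3.3 mRNA while the title reads H3.2 mRNA, and the title is followed throughout. The source names call the luciferase and H3.2 mRNA libraries SCNT and the other 3 NT. The donor cell, the knockdown reagent and the number of embryos pooled in a library are not given in the sources used here. With 1 library in each group no difference below has a replicate check, no p-value can be given, and the gap between the luciferase and untreated libraries is the only gauge of how far 2 control libraries lie apart.

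In mouse embryos the zygotic genome is switched on mainly at the 2-cell stage, when a set of genes, many of them in multicopy families and some started from the long terminal repeats of the endogenous retrovirus MERVL, is transcribed for a short time and then shut down. Zscan4 genes encode SCAN-domain zinc finger proteins linked to telomere maintenance in embryonic stem cells. Zfp352 encodes a zinc finger protein, and Tdpoz genes encode proteins with a TRAF domain and a POZ domain. Eif1a encodes a translation initiation factor that helps the small ribosomal subunit find the start codon, and Arg2 encodes the mitochondrial arginase, which splits arginine into ornithine and urea. H3.3 is the histone H3 variant deposited independently of replication, and H3.2 is a form deposited mainly during it.

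The regions before the transcript starts are shown first, since they display what members of a family share and what sets Zfp352 apart by sequence. RefSeq windows on the GRCm38.p6 build were examined for 5 of the 8 genes, and the 4 that held a match are printed. Tdpoz3 and Arg2 had no RefSeq entry to use, and the window of Eif1a was not examined. Each line below gives the 250 bases before the start, 5′ to 3′ on the gene's strand. Capitals mark the letters TATAA, the core of a TATA-type box, and TAATCC, the core bound by bicoid-type homeodomain proteins such as Otx2 and Crx, and both strands were searched. The 2 motifs did not overlap in these windows.
Zscan4c, chr7:11005495-11005744, plus strand: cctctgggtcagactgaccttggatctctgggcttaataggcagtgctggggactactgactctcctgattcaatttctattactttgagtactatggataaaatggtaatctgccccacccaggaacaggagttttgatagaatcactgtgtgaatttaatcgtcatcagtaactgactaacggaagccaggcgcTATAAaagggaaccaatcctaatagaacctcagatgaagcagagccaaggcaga
Zscan4d, chr7:11166149-11166398, minus strand: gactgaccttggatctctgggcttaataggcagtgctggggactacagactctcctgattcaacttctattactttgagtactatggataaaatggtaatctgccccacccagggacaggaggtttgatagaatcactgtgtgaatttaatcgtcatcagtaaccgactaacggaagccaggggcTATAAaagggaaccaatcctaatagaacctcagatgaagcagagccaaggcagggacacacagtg
Zfp352, chr4:90218570-90218819, plus strand: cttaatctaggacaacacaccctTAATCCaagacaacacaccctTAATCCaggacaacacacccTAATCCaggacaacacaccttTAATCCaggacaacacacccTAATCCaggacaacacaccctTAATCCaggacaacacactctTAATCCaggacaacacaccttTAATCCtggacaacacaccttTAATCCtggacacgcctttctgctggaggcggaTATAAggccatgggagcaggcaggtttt
Tdpoz1, chr3:93676284-93676533, minus strand: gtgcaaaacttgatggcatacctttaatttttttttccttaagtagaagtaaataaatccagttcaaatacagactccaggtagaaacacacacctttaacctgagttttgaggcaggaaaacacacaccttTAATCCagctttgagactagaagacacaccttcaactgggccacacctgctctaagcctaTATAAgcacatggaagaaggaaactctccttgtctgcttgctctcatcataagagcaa

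The Zscan4c and Zscan4d regions aligned over 239 bases and were identical at 232 of them (97.1%). Each held 1 TATAA, whose first base lay 54 bases before the start in Zscan4c and 65 bases before it in Zscan4d. Zfp352 held TATAA 28 bases, a distance usual for a TATA box, and Tdpoz1 58 bases before the start, and Tdpoz4 held neither motif in its window. TATAA was present in 22.8% of the 32851 RefSeq windows of this length, so 4 of 5 windows with it is a description of a small set. Zfp352 differed in TAATCC, which stood 9 times on the gene's strand, the first 227 and the last 61 bases before the start, at a spacing of 20 to 21 bases. The bases between the copies repeat almost unchanged, so the copies belong to a tandem repeat. Other letters of the repeat recur with them, and the number of copies is not particular to this motif. Of all windows 6.25% held TAATCC at least once, and 8 windows (0.0244%), its own included, held at least 3 copies. Tdpoz1 held 1 copy. A match says only that these letters are present, and no factor was measured at these sites.

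**Figure D1:**
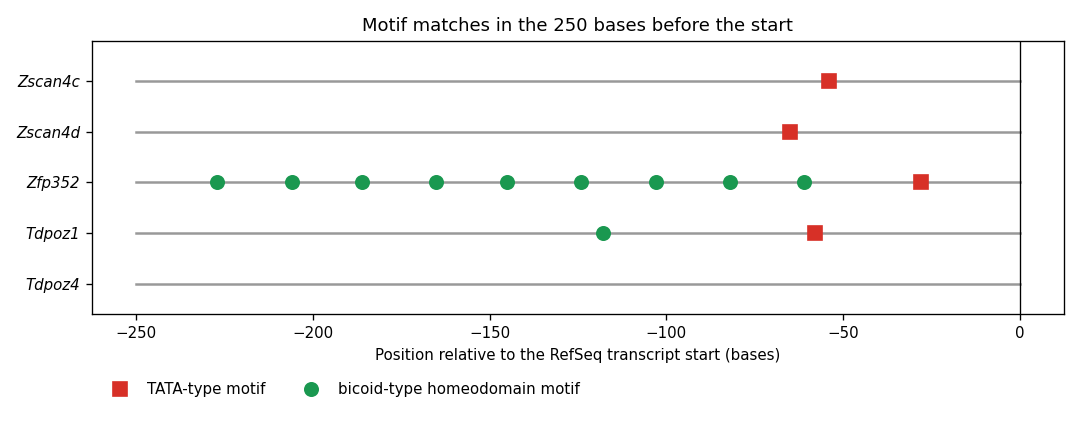
Motif matches in the 250 bases before the RefSeq start of 5 genes. The x axis is the distance from the start in bases, squares mark the first base of TATA-type matches and circles that of bicoid-type homeodomain matches. The 9 evenly spaced circles of Zfp352, which lie in a tandem repeat, stand against 1 circle in Tdpoz1 and none in the other 3 genes.

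Several members are near copies of other genes, which bears on every value below because the reads were 51 bases long. Of the 51-base windows of the longest GENCODE M21 transcript, 85.3% in Zscan4c and 49.1% in Zscan4d also occurred in a transcript of another gene, mostly other Zscan4 genes. For Tdpoz3 the share was 65.6% and for Tdpoz1 44.4%. Tdpoz4 shared 425 of its 1063 windows with 12 other genes, 30.2% with Gm5541 and 23.0% with Tdpoz8. Zfp352 shared 6.83% and Eif1a 3.91% of its windows, so that these 2 are the members whose reads are least open to exchange. Arg2 shared 290 of 1378 windows, 17.1% with Vti1b, a neighbouring gene whose transcript overlaps its own. The sources used here do not say how the authors' counting divided such reads.

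**Figure D2:**
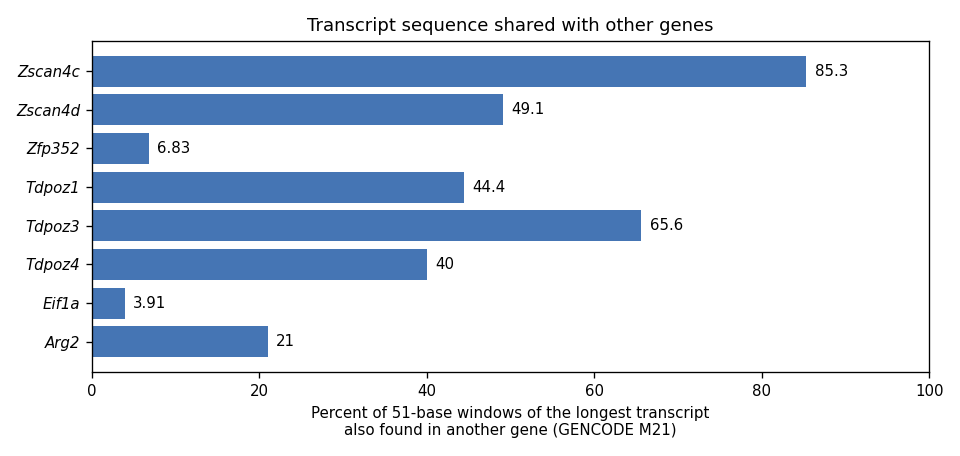
Share of 51-base windows of each gene's longest transcript that also occur in another gene. The x axis is in percent of windows, with 1 bar for each gene. Zscan4c stands highest at 85.3% and Eif1a lowest at 3.91%.

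As a check of the labels, H3f3a and H3f3b, the genes of H3.3, summed to 467 FPKM with H3.3 mRNA, 420 FPKM with H3.2 mRNA and 664 FPKM in the knockdown, against 5734 FPKM in the luciferase and 5266 FPKM in the untreated library. The library labelled H3.3 mRNA was not above the knockdown and lay close to the one labelled H3.2 mRNA, so this sum bears out the knockdown labels but not the H3.3 mRNA label, and it does not settle the conflicting tag. Both libraries are called by their labels throughout. Of 13 oocyte marker genes, 11 to 13 were above 0 in each library, and they summed to 1627 FPKM with H3.3 mRNA, 1802 FPKM with H3.2 mRNA and 1964 FPKM in the knockdown, against 561 FPKM in the luciferase and 5482 FPKM in the untreated library. Mos and Oosp1 were listed at 0 in the luciferase library and Mos also with H3.2 mRNA. Of 10 fibroblast markers 7 were at 0 in every library, and the other 3 were above 0 in the luciferase library alone, where they summed to 11.8 FPKM. Of 10 cumulus cell markers 4 were at 0 in every library, and the 10 summed to 332 to 1076 FPKM, mostly Amhr2 except in the untreated library, where Tnfaip6 stood at 185 FPKM and Amhr2 at 142 FPKM. The 10 markers of later embryos summed to 1517 FPKM with H3.3 mRNA, 481 FPKM with H3.2 mRNA and 792 FPKM in the knockdown, against 2949 FPKM in the luciferase and 2443 FPKM in the untreated library. Of these, Cdx2 and Eomes were at 0 in every library, and Krt8, a keratin gene, was at 22.5 FPKM with H3.3 mRNA, 44.8 FPKM with H3.2 mRNA and 0 in the knockdown, against 836 FPKM in the luciferase and 184 FPKM in the untreated library. Tead4 and Gata6 were instead highest with H3.3 mRNA, at 814 and 280 FPKM. In the luciferase library they stood at 528 and 223 FPKM, and in the untreated library at 645 and 47.0 FPKM.

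Zfp352 had the widest range of any member that was above 0 in every library. It stood at 137 FPKM with H3.3 mRNA, 118 FPKM with H3.2 mRNA and 15.0 FPKM in the knockdown, against 1.37 FPKM in the luciferase and 396 FPKM in the untreated library. The 2 control libraries thus held its lowest and its highest level, a 289-fold gap, and the other 3 lay between them. On the log2(FPKM + 1) scale, which understates the change of low values, the knockdown differed from the luciferase library by 2.75 and from the untreated library by -4.64, and the luciferase library differed from the untreated one by -7.39. Both libraries given mRNA lay above the knockdown, by 3.11 log2 units in the case of H3.3 mRNA and 2.90 for H3.2 mRNA, and they differed from each other by 0.21. Between the H3.2 mRNA and luciferase libraries, both named SCNT, it differed by 5.65. The summed oocyte markers given above were likewise highest in the untreated and lowest in the luciferase library, but not every marker followed the sum. Zp2 stood at 34.6 FPKM in the luciferase and 8.82 FPKM in the untreated library, and Padi6 at 179 and 130 FPKM. The other oocyte markers were higher in the untreated than in the luciferase library. H1foo and Gdf9 were the largest parts of the untreated sum, at 1925 and 1332 FPKM. The part of the oocyte markers in the Zfp352 gap between the controls was not tested. The sum of the oocyte markers was not higher in either library given mRNA than in the knockdown, but single markers went both ways. Bmp15 stood at 24.9 FPKM with H3.3 mRNA and 111.7 FPKM with H3.2 mRNA, against 13.9 FPKM in the knockdown. Zar1 stood at 64.4 FPKM with H3.3 mRNA and 18.4 FPKM with H3.2 mRNA, against 173 FPKM in the knockdown. In whole embryos, fewer cells with a transcript and less transcript in each cell cannot be told apart.

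**Figure D3:**
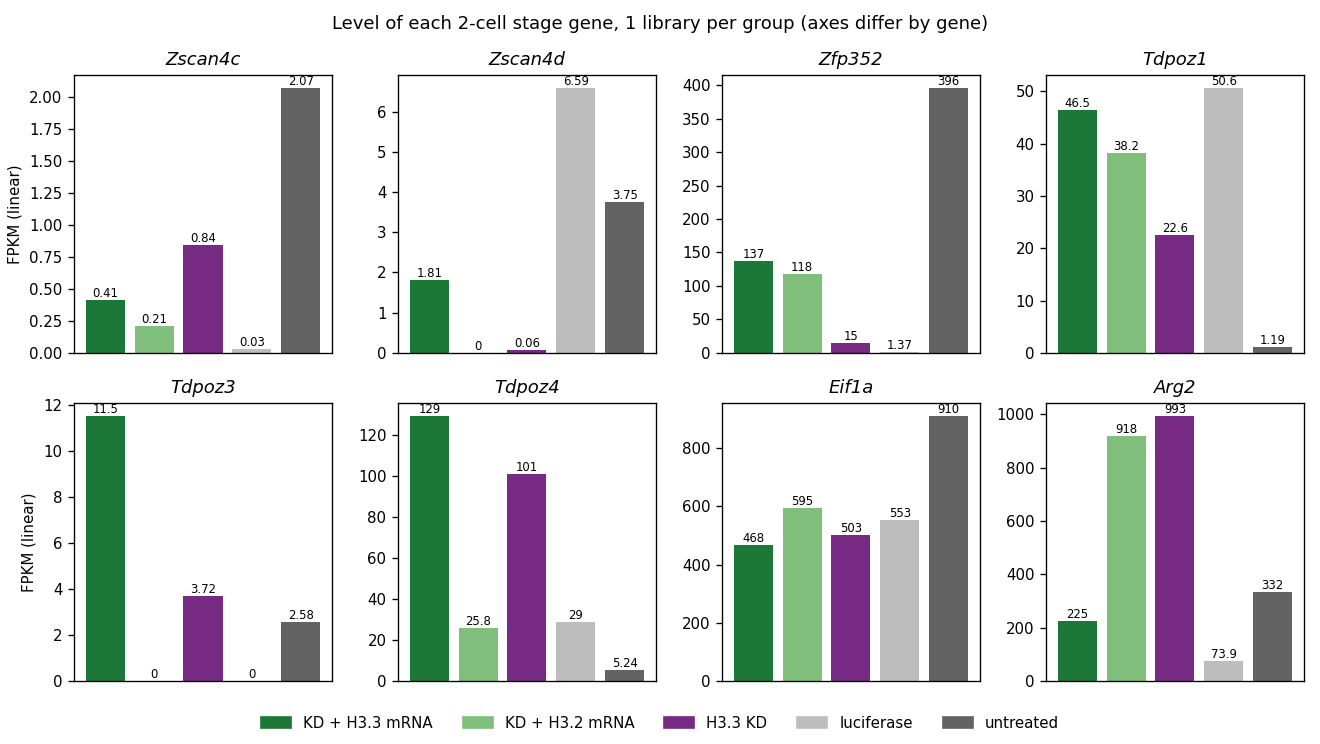
FPKM of each of the 8 genes on a linear axis from 0, with 1 bar for each library and a separate axis for each gene. From left to right the bars are knockdown with H3.3 mRNA, knockdown with H3.2 mRNA, knockdown, luciferase and untreated. Zfp352 and Eif1a are highest in the untreated library, Tdpoz1 and Tdpoz4 lowest there, and Arg2 is highest in the knockdown and H3.2 mRNA libraries.

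The Zscan4 members were near the floor of these tables. Zscan4c stood at 0.41 FPKM with H3.3 mRNA, 0.21 FPKM with H3.2 mRNA and 0.84 FPKM in the knockdown, against 0.03 FPKM in the luciferase and 2.07 FPKM in the untreated library. Zscan4d stood at 1.81 FPKM with H3.3 mRNA, at a listed 0 with H3.2 mRNA and at 0.06 FPKM in the knockdown, against 6.59 FPKM in the luciferase and 3.75 FPKM in the untreated library. Zscan4c was highest in the untreated library, and Zscan4d was higher in both controls than in the other 3 libraries. The summed markers of later embryos given above were likewise higher in both controls, although single markers such as Tead4 and Gata6 were not. The part of these markers in the Zscan4d values was not tested. Zscan4d was the only member at least 4-fold from both controls in the knockdown, with log2 differences of -2.84 against the luciferase and -2.16 against the untreated library. Of all 13144 genes past the filter, 6.35% were at least 4-fold lower against both. Under quantile normalization these differences were -0.30 and -1.26, short of 4-fold. The 6 Zscan4 genes in the tables, which share much of their sequence, summed to 3.25 FPKM with H3.3 mRNA, 0.61 FPKM with H3.2 mRNA and 2.54 FPKM in the knockdown, against 6.73 FPKM in the luciferase and 11.9 FPKM in the untreated library. By that sum the knockdown differed by -1.13 log2 units from the luciferase and by -1.87 from the untreated library, neither of them 4-fold.

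The listed division among the Zscan4 copies also differed between libraries. The sums divided are small, from 0.61 FPKM with H3.2 mRNA to 11.9 FPKM in the untreated library. How reads shared between copies were assigned is not known. Zscan4d took 55.7% of the summed level with H3.3 mRNA, 0% with H3.2 mRNA and 2.36% in the knockdown, against 97.9% in the luciferase and 31.4% in the untreated library. Zscan4a, Zscan4c and Zscan4f together stood at 1.44 FPKM with H3.3 mRNA, 0.61 FPKM with H3.2 mRNA and 2.48 FPKM in the knockdown, against 0.14 FPKM in the luciferase and 8.06 FPKM in the untreated library. These 3 copies were thus highest in the untreated and lowest in the luciferase library, as Zfp352 was, whereas Zscan4d was highest in the luciferase library. Zscan4b and Zscan4e were at 0.06 FPKM in the untreated library and listed at 0 in the rest.

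Tdpoz1 and Tdpoz4 had the opposite order between the controls. Tdpoz1 stood at 46.5 FPKM with H3.3 mRNA, 38.2 FPKM with H3.2 mRNA and 22.6 FPKM in the knockdown, against 50.65 FPKM in the luciferase and 1.19 FPKM in the untreated library. Tdpoz4 stood at 129 FPKM with H3.3 mRNA, 25.8 FPKM with H3.2 mRNA and 101 FPKM in the knockdown, against 29.0 FPKM in the luciferase and 5.24 FPKM in the untreated library. Both were lowest in the untreated library, which the knockdown exceeded by 3.43 log2 units for Tdpoz1 and 4.03 for Tdpoz4 and the luciferase library by 4.56 and 2.26. Tdpoz3 was low throughout, at 11.5 FPKM with H3.3 mRNA, a listed 0 with H3.2 mRNA and 3.72 FPKM in the knockdown, against a listed 0 in the luciferase and 2.58 FPKM in the untreated library. Tdpoz3 and Tdpoz4 were highest with H3.3 mRNA, 3.65 and 2.28 log2 units above the library labelled H3.2 mRNA, while Tdpoz1 differed between those 2 libraries by 0.28. Summed over all Tdpoz genes in the tables, that difference was 1.67, short of 4-fold.

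The other Tdpoz genes were looked up by their older names in RefSeq, and they were taken up with their values known. The tables held 7 Tdpoz genes in all, of which Tdpoz7 had the highest level, with 649.9 FPKM with H3.3 mRNA, 63.1 FPKM with H3.2 mRNA and 172 FPKM in the knockdown, against 154 FPKM in the luciferase and 44.2 FPKM in the untreated library. Tdpoz2 was listed at 0 in the untreated library and stood at 79.2 to 124 FPKM in the other 4. The untreated library was the lowest of the 5 for 6 of the 7 genes, and for 20.7% of all genes past the filter. The library labelled H3.3 mRNA was the highest for 5 of the 7, and for 16.7% of all genes. Summed over the family the level was 1009 FPKM with H3.3 mRNA, 316 FPKM with H3.2 mRNA and 470 FPKM in the knockdown, against 339 FPKM in the luciferase and 57.4 FPKM in the untreated library. These genes share windows with each other or with further copies, so their counts are not independent.

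Eif1a varied least among the 7 members past the filter, with a 1.94-fold span. It stood at 468 FPKM with H3.3 mRNA, 595 FPKM with H3.2 mRNA and 503 FPKM in the knockdown, against 553 FPKM in the luciferase and 910 FPKM in the untreated library. It ranked above at least 93.1% of the genes in each library, and no comparison reached 4-fold. The untreated library stood above the other 4, which lay close together. In the knockdown it differed by -0.14 log2 units from the luciferase and by -0.85 from the untreated library, and the luciferase library differed from the untreated one by -0.72.

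Copies of Eif1a spanned a wider range than Eif1a itself. The tables held 7 genes whose transcripts share at least 1 window of 51 bases with Eif1a, all under model or clone names, and they were taken up after their values were seen. Gm2016 stood at 16.4 FPKM with H3.3 mRNA, 206 FPKM with H3.2 mRNA and 201 FPKM in the knockdown, against 1.40 FPKM in the luciferase and 16.5 FPKM in the untreated library. Gm8300 stood at 90.6 FPKM with H3.3 mRNA, 271 FPKM with H3.2 mRNA and 109 FPKM in the knockdown, against 15.9 FPKM in the luciferase and 241 FPKM in the untreated library. Gm2016 shares 74.8% of its windows with Gm5662, so these 2 are not separate measurements. The same holds for BB287469, which shares 94.3% of its windows with Gm4027, another of the copies. The counts below include both pairs and are not counts of 7 independent genes. The 7 copies summed to 143 FPKM with H3.3 mRNA, 796 FPKM with H3.2 mRNA and 627 FPKM in the knockdown, against 34.9 FPKM in the luciferase and 427 FPKM in the untreated library. At least 4-fold differences numbered 5 higher and 0 lower for the knockdown against the luciferase library, where 9.74% of all genes past the filter were higher and 18.9% lower. Against the untreated library 3 were higher and 1 lower (16.8% and 15.6% of all genes). The luciferase library was itself lower than the untreated library for 6 of the 7 and higher for none (13.4% and 23.5% of all genes), and the sum was 12.2-fold higher in the untreated library. With H3.3 mRNA 4 of the 7 were lower than in the knockdown (10.1%), and with H3.2 mRNA none passed 4-fold in either direction (19.5% higher and 9.11% lower).

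**Figure D4:**
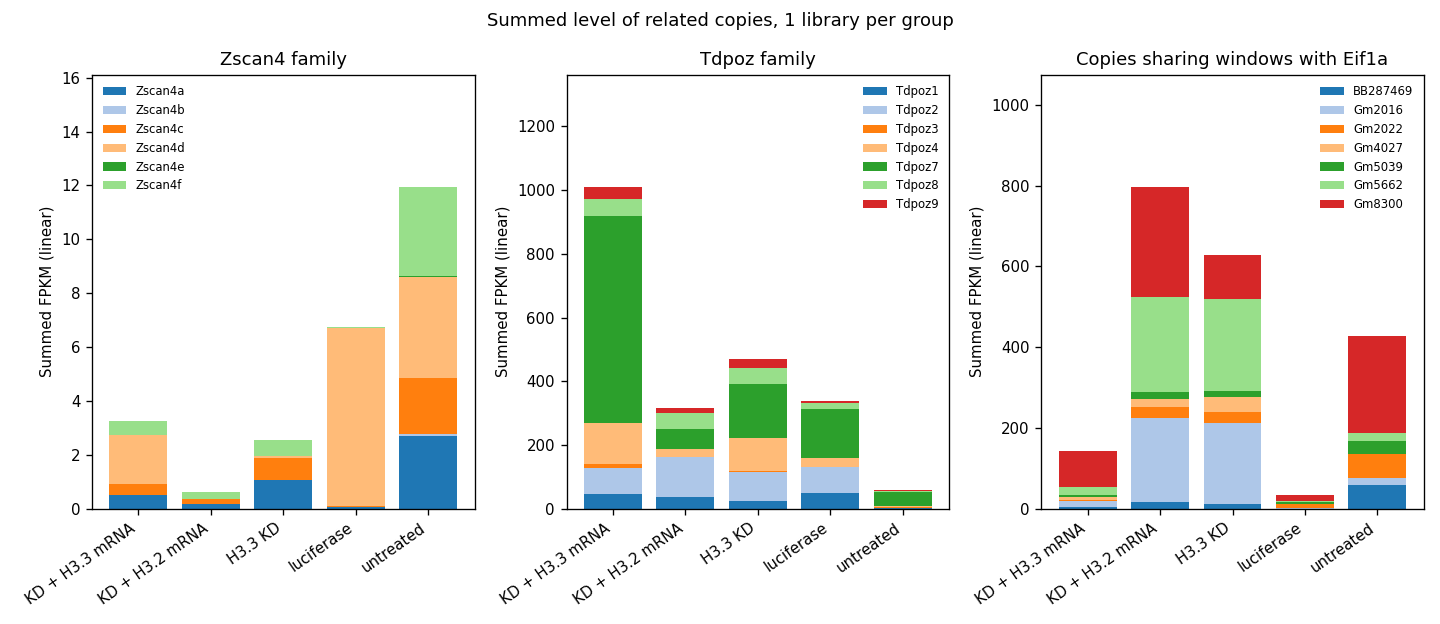
Summed FPKM of the Zscan4 genes, the Tdpoz genes and the copies that share sequence with Eif1a, on linear axes from 0, stacked by gene with 1 bar for each library. The Zscan4 sum is highest in the untreated library (11.9 FPKM), the Tdpoz sum highest with H3.3 mRNA (1009 FPKM) and the sum of the Eif1a copies highest with H3.2 mRNA (796 FPKM) and in the knockdown (627 FPKM).

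Arg2 was high in the knockdown and with H3.2 mRNA. It stood at 225 FPKM with H3.3 mRNA, 918 FPKM with H3.2 mRNA and 993 FPKM in the knockdown, against 73.9 FPKM in the luciferase and 332 FPKM in the untreated library. The knockdown exceeded the luciferase library 13.4-fold and the untreated library 2.99-fold, and the luciferase library was itself 4.50-fold below the untreated one. The library labelled H3.3 mRNA lay between the controls, with log2 differences of -2.14 from the knockdown and -2.03 from the library labelled H3.2 mRNA. The first of these was -1.95 under upper-quartile scaling and -1.87 under quantile normalization, just short of 4-fold, and the difference between the luciferase and untreated libraries was -1.56 and -1.83 under the same 2 scalings, against -2.15 as reported. Vti1b, the overlapping neighbour, stood at 189 FPKM with H3.3 mRNA, 246 FPKM with H3.2 mRNA and 529 FPKM in the knockdown, against 159 FPKM in the luciferase and 514 FPKM in the untreated library. Both genes were higher in the knockdown than with H3.3 mRNA, but Vti1b was not high with H3.2 mRNA, where Arg2 was, and stood at similar levels in the knockdown and untreated libraries. The sources used here do not say whether the libraries kept the strand, and the part of Vti1b reads in the Arg2 values was not tested.

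The comparisons were then counted over the 7 members past the filter, beside all 13144 genes. Against the luciferase library, the knockdown was at least 4-fold higher for 3 members, Zfp352, Tdpoz3 and Arg2, and lower for 1, Zscan4d, where 9.74% of all genes were higher and 18.9% lower. The median difference of the members was 1.77 log2 units, against -0.12 over all genes. Against the untreated library, the knockdown was higher for 2 members, Tdpoz1 and Tdpoz4, and lower for 2, Zscan4d and Zfp352, where 16.8% and 15.6% of all genes were, and the members' median was 0.40, against 0.00 over all genes. The 2 controls differed from each other at 4 members as well: the luciferase library was higher than the untreated library for Tdpoz1 and Tdpoz4 (23.5% of all genes) and lower for Zfp352 and Arg2 (13.4%). The 3 comparisons share libraries and are not independent.

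Set against both controls at once, the knockdown lay above them for 3 of the 8 members, Tdpoz3, Tdpoz4 and Arg2, below them for 2, Zscan4d and Eif1a, and between them for 3, Zscan4c, Zfp352 and Tdpoz1. Of all genes past the filter, 26.8% lay above, 29.8% below and 43.4% between. No member was at least 4-fold above both, where 4.98% of all genes were. The members thus lay on both sides of the controls, as genes at large did. With H3.3 mRNA 2 of the 8 lay above both controls, 2 below and 4 between, where 29.4%, 25.4% and 45.1% of all genes did. With H3.2 mRNA 1 lay above, 1 below and 6 between, where 31.7%, 25.8% and 42.6% of all genes did. The 8 members include Zscan4c, which did not pass the filter that the other genes had passed, and which lay between each time. Tdpoz3 is counted as between with H3.2 mRNA, although it was listed at 0 both there and in the luciferase library.

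Among the libraries given mRNA, Zfp352 was the member at least 4-fold above the knockdown with either mRNA. With H3.3 mRNA it was the only one higher (16.4% of all genes were) and Arg2 the only one lower (10.1%). With H3.2 mRNA it was the only one higher (19.5%) and Tdpoz3 the only one lower (9.11%), with Tdpoz4 just short at -1.93 log2 units. The members' median difference from the knockdown was 1.01 with H3.3 mRNA, against 0.00 over all genes, and -0.08 with H3.2 mRNA, against 0.15 over all genes. Between the libraries with the same source name, the library labelled H3.2 mRNA exceeded the luciferase library 4-fold for Zfp352 and Arg2 (10.4%) and was lower for Zscan4d (9.84%). The library labelled H3.3 mRNA exceeded the library labelled H3.2 mRNA for Tdpoz3 and Tdpoz4 (8.38%) and was lower for Arg2 (12.6%). Zfp352 was thus at a similar level in both libraries given mRNA, and Arg2 was not.

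**Figure D5:**
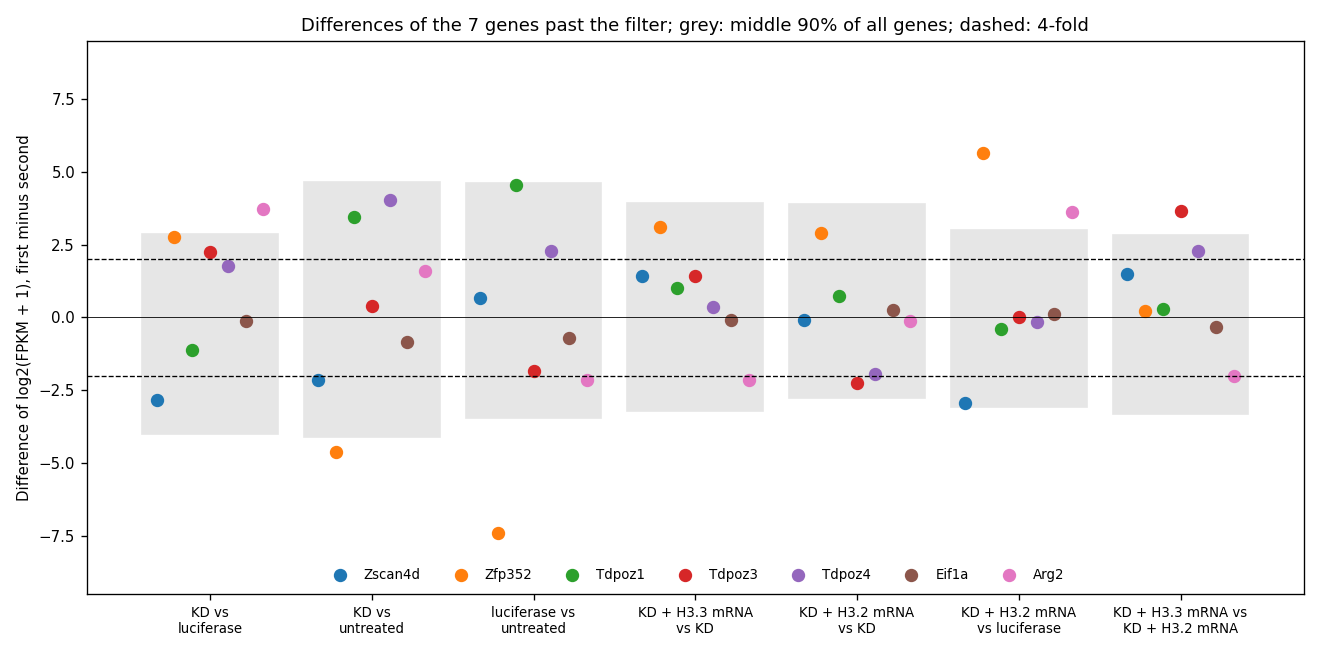
Differences of log2(FPKM + 1) for the 7 members past the filter in 7 comparisons, first group minus second. Grey boxes span the middle 90% of all genes past the filter and dashed lines mark 4-fold. Zfp352 lies below the box for the luciferase against the untreated library (-7.39) and for the knockdown against the untreated library (-4.64). Arg2 lies above the box for the knockdown against the luciferase library (3.73). Zfp352 (5.65) and Arg2 (3.62) lie above it for the H3.2 mRNA against the luciferase library. Tdpoz3 (3.65) lies above it for the H3.3 mRNA against the H3.2 mRNA library.

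A wider list of 2-cell genes that are no members was described in the same way, and 62 of its 81 symbols were found, 54 of them past the filter. Against the luciferase library the knockdown was at least 4-fold higher for 13 of the 54 and lower for 2 (9.74% and 18.9% of all genes), with a median of -0.01. Against the untreated library 13 were higher and 3 lower (16.8% and 15.6%), with a median of -0.42. The luciferase library was higher than the untreated library for 5 and lower for 8 (23.5% and 13.4%). Most of the higher genes came from the mixed list of other 2-cell genes, where 11 of 20 were higher and none lower than in the luciferase library and 9 higher and 1 lower than in the untreated library. Between the controls, 2 of the 20 were higher and 5 lower in the luciferase than in the untreated library. This list holds 4 of the copies of Eif1a described above. Its 4 most abundant genes were Sp110, Gm4340, Spz1 and Ddit4l. Gm4340 stood at 219 FPKM with H3.3 mRNA, 694 FPKM with H3.2 mRNA and 845 FPKM in the knockdown, against 21.5 FPKM in the luciferase and 25.5 FPKM in the untreated library, and 98.8% of its windows occur in other genes. Sp110, which encodes a nuclear body protein, was highest with H3.3 mRNA at 9190 FPKM and lay between 2301 and 3736 FPKM in the other 4 libraries. Spz1, a transcription factor gene of the testis, stood at 504 FPKM with H3.3 mRNA, 607 FPKM with H3.2 mRNA and 251 FPKM in the knockdown, against 178 FPKM in the luciferase and 74.6 FPKM in the untreated library.

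The Pramel family, whose proteins carry leucine-rich repeats, had 12 genes past the filter. Of these, 1 was 4-fold higher and none lower in the knockdown than in the luciferase library (9.74% and 18.9% of all genes), and 1 was higher and 1 lower than in the untreated library (16.8% and 15.6%). The higher gene was BC080695 both times and the lower one Pramef8, named here because of those values. With H3.2 mRNA 4 of the 12 were higher and none lower than in the luciferase library (10.4% and 9.84%), and these were C87414, C87499, C87977 and BC080695, also named for their values. In the luciferase library 2 were lower than in the untreated library (13.4%), C87414 and C87499, and with H3.3 mRNA 2 were lower than with H3.2 mRNA (12.6%), C87414 and BC080695. Its 4 most abundant genes were Pramel7, Pramel6, Pramel5 and Pramel4. Pramel7 was at 1848 FPKM with H3.3 mRNA, 2430 FPKM with H3.2 mRNA and 1802 FPKM in the knockdown, against 2980 FPKM in the luciferase and 1749 FPKM in the untreated library. Of the deubiquitinase genes of the Usp17l family, 3 were found. Against the luciferase library the knockdown was 4-fold higher for Dub2a and lower for none (9.74% and 18.9% of all genes). Against the untreated library the knockdown was higher for Dub1a and Dub2a and lower for Dub1 (16.8% and 15.6%). The luciferase library was itself 4-fold higher than the untreated library for Dub1a (23.5% of all genes). Dub1a stood at 109 FPKM with H3.3 mRNA, 167 FPKM with H3.2 mRNA and 244 FPKM in the knockdown, against 132 FPKM in the luciferase and 6.02 FPKM in the untreated library, and so was low in the untreated library only, as most Tdpoz genes were.

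The genes whose pattern over the 5 libraries was nearest to the mean of the 7 members were Lrrc47, Gen1, Rbm45, Fam89b and Furin. Likeness was the Euclidean distance between centred log2(FPKM + 1) values over 5 libraries, among 4177 genes above 0 in every library that span at least 2 log2 units and carry no clone or model name. The members' mean profile itself spanned 1.63 log2 units, so genes with as narrow a span were not among the candidates. The distances of the 5 genes were 0.461 to 0.667 log2 units. Lrrc47, the nearest, stood at 160 FPKM with H3.3 mRNA, 93.8 FPKM with H3.2 mRNA and 81.1 FPKM in the knockdown, against 39.0 FPKM in the luciferase and 57.0 FPKM in the untreated library. The members themselves lay farther from their own mean, from 1.60 for Eif1a to 5.26 for Zfp352, so the mean profile stands for none of them.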

How the data were processed

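Total RNA of 5 libraries was sequenced as single reads of 51 bases on Illumina TruSeq libraries, per the labels' protocols. The authors deposited 1 FPKM value per gene symbol and library. TopHat and Cufflinks on the mm9 build made them, per the submitters' processing notes, with no versions. The deposited values hold no read counts, and a search of values under 5 FPKM for steps worth 1 read found none (the fullest bin of 0.1 log2 units held at most 5.47% of genes in any pair of libraries), so the depth is unknown and no counting interval is given.

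Values were compared as log2(FPKM + 1) over 13144 genes whose mean reached 1 FPKM, and called at 4-fold, with no test since each group has 1 library. All members are named, as are up to 4 genes of a related list by mean level, the 5 genes nearest to the members' mean profile, and H3f3a and H3f3b. Genes named outside that rule are said to be, except Dux, genes that share sequence with a member, and single marker genes. Single markers, such as Tead4, Gata6, Bmp15, Zar1, Zp2 and Padi6, were named with their values known. Members and lists were chosen with earlier results of these data known. Promoters are from RefSeq (GRCm38.p6) and transcripts from GENCODE M21 (GRCm38), which differ from mm9. The calling step was tested on simulated data, which checks the code and not how reliable the calls made here are. Other pseudocounts, filters and scalings were tried. Python 3.11.15, pandas 2.3.3 and numpy 2.4.6 were used.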

Additional observations from a re-analysis of the deposited data

How the results depend on the processing

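Counts of members at least 4-fold apart were recomputed with pseudocounts of 0.1 and 10 FPKM, no filter, a filter at 5 FPKM, upper-quartile scaling and quantile normalization. Of 84 recomputed counts, 61 stayed within 1.5 times the reported one and 23 did not. Without a filter none moved. With a pseudocount of 10 FPKM, the knockdown had 1 member higher and 0 lower against the luciferase library and 1 higher and 1 lower against the untreated library, the luciferase library had 1 higher than the untreated library, the H3.2 mRNA library had 0 lower against the knockdown and 0 lower against the luciferase library, and the H3.3 mRNA library had 0 higher and 0 lower against the H3.2 mRNA library. With 0.1 FPKM, the H3.3 mRNA library had 2 higher than the knockdown. With a filter at 5 FPKM, which leaves 5 members, the knockdown had 0 lower against the luciferase library and 1 lower against the untreated library, the H3.2 mRNA library 0 lower against the knockdown and 0 lower against the luciferase library, and the H3.3 mRNA library 1 higher against the H3.2 mRNA library. Under upper-quartile scaling the knockdown had 1 lower against the untreated library, the luciferase library 1 lower against the untreated library and the H3.3 mRNA library 0 lower against the knockdown. Under quantile normalization the knockdown had 0 lower against the luciferase library and 1 lower against the untreated library, the luciferase library 1 higher than the untreated library, the H3.3 mRNA library 0 lower than the knockdown and the H3.2 mRNA library 3 lower. The filter at 5 FPKM removes Zscan4d and Tdpoz3 by construction, and the cause of the other shifts was not tested. The shares of all genes called moved too, and with a pseudocount of 10 FPKM they fell in every comparison. For the knockdown against the luciferase library, 4.34% were then higher and 5.41% lower, against 9.74% and 18.9% as reported. These shares were 10.9% and 22.0% with 0.1 FPKM and 9.85% and 15.9% with the filter at 5 FPKM. They were 7.89% and 21.6% under upper-quartile scaling and 12.5% and 14.4% under quantile normalization. Of 196 recomputed single differences, 171 kept their side of 4-fold and none that was called changed its sign. Upper-quartile scaling moved the median of all genes for the luciferase against the untreated library to 0.60, against 0.02 as reported. The sums over the Zscan4 and Tdpoz genes were added after seeing the data. No paired analysis was possible because each group has 1 library and the labels carry no replicate number.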

Other observations

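Hspa1a and Hspa1b, inducible HSP70 genes that are among the earliest transcribed in the mouse zygote, had the same outer order as Zfp352. Hspa1a stood at 84.1 FPKM with H3.3 mRNA, 32.8 FPKM with H3.2 mRNA and 65.6 FPKM in the knockdown, against 17.1 FPKM in the luciferase and 136 FPKM in the untreated library. Hspa8, the constitutive HSP70 gene, stood at 4866 FPKM with H3.3 mRNA, 5306 FPKM with H3.2 mRNA and 2584 FPKM in the knockdown, against 13860 FPKM in the luciferase and 5653 FPKM in the untreated library. Of these 3 genes the knockdown was at least 4-fold lower than the luciferase library for Hspa8 and higher for none. Of all genes past the filter 18.9% were lower and 9.74% higher. None of the 3 was 4-fold apart from the untreated library, where 16.8% of all genes were higher and 15.6% lower. Between the controls, Hspa1a was 4-fold lower in the luciferase library, with a log2 difference of -2.92 (13.4% of all genes were lower).

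Of the 18 regulators of the 2-cell state listed, 16 were found and 15 passed the filter. Dux, a multicopy homeobox gene that drives 2-cell genes in embryonic stem cells, was listed at 0 in every library. Dppa2 and Dppa4, which act upstream of it there, were abundant, Dppa2 at 969 to 2155 FPKM and Dppa4 at 1654 to 3598 FPKM. In the knockdown none of the 15 was at least 4-fold higher than in the luciferase library and 1, Klf5, was lower (9.74% and 18.9% of all genes), and against the untreated library none passed (16.8% and 15.6%). With H3.3 mRNA 3 were higher than in the knockdown and none lower (16.4% and 10.1%), Setdb1, Klf5 and Klf17, the first 2 of them named because of these values. Setdb1, a histone H3K9 methyltransferase gene, stood at 492 FPKM with H3.3 mRNA, 183 FPKM with H3.2 mRNA and 98.6 FPKM in the knockdown, against 130 FPKM in the luciferase and 172 FPKM in the untreated library.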
